A study of Mus musculus with 16 samples.

Results

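Foxp1, Foxp2, Bcl11b, Meis2, Rarb, Rxrg and Zfp503 encode transcription factors known for their role in the projection neurons of the striatum. These 7 genes were chosen by name, out of 21627 annotated genes with at least 1 read, because of that known role and with earlier results of these data known, so a higher level in striatum than in cortex is a check of the tissue label. PacBio Iso-seq, which reads complementary DNA molecules from end to end, was carried out on the striatum and cortex of 3-month-old male mice. The R6/2 mice (B6CBA-Tg(HDexon1)62Gpb/3J) carry exon 1 of the human huntingtin gene with an expanded CAG repeat under its human promoter, and the controls were non-transgenic (NT) mice. There were 4 samples in each of the groups striatum NT, striatum R6/2, cortex NT and cortex R6/2, and the labels name no further agent. The labels do not tie the samples to animals, so the p-values measure the spread between these samples.

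Striatal projection neurons are the inhibitory output neurons that make up most of the striatum and are the cells most affected in Huntington's disease. Bcl11b (also called Ctip2) is a zinc finger protein required for their differentiation, Foxp1 and Foxp2 are forkhead repressors, and Meis2 is a homeodomain protein that works with Pbx partners. Rarb is a nuclear receptor for retinoic acid that binds DNA as a heterodimer with a retinoid X receptor such as Rxrg, while Zfp503 (Nolz1) is a zinc finger protein of the developing striatum.

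Gene reads were the reads of known isoforms, incomplete splice matches (ISM, which match only part of an annotated chain of junctions), new combinations of annotated splice sites (NIC) and isoforms with a new splice site (NNC). Between 251336 and 1349108 gene reads were counted per striatal sample and between 202664 and 699709 per cortical sample. For 4 striatal samples (NT replicates 1 and 2, R6/2 replicates 2 and 3) the counts are the sum of 2 deposited count sets, and the 4 other striatal samples and all cortical ones have 1. The mean length of the counted transcripts was 2125 to 2197 nt in striatal samples with 2 count sets and 1589 to 1840 nt in those with 1, and the genomic class (reads that overlap a gene without fitting a spliced isoform) held 5.30 to 6.07% and 8.71 to 12.2% of all reads. The number of count sets was therefore a term of every fit that held striatal samples. Striatum NT replicate 4 was the shallowest and shortest striatal library, and results are also given without it.

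The annotated positions in mm10 are chr6:98925338-99522721 for Foxp1, chr6:14901349-15441977 for Foxp2 and chr12:107910403-108003602 for Bcl11b. Meis2 lies at chr2:115863064-116065839, Rarb at chr14:16430839-16819156, Rxrg at chr1:167598384-167639623 and Zfp503 at chr14:21983959-21989601. All are on the minus strand except Foxp2 and Rxrg.

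Promoter sequence from RefSeq (GRCm38.p6) was found for 6 of the 7 genes, with 9 start sites between them. Bases before the start are shown for Rarb, Rxrg and Foxp1, because nearly all of their coding known reads were of isoforms with a single annotated start. The Rarb window carries a direct repeat of the retinoic acid receptor half-site, and both half-sites are in capitals. Searched as AGGTCA or GGGTCA or AGTTCA or GGTTCA repeated after a spacer of 5 bases, on either strand, this motif was in the 300-base window of 1 of the 9 starts and in 0.0974% of 32851 mouse promoters. In Rarb it ran from base -53 to base -37 relative to the RefSeq start. The first exon of Rarb ENSMUST00000063750 in GENCODE begins 67 bases upstream of that start, so the repeat lies within this exon by that annotation. The letters are a match to the motif only, since binding was not measured.
Rarb repeat (chr14:16575508-16575534, minus strand): ggaagGGTTCAccgaaAGTTCActcgc
Rarb promoter, before the GENCODE start (chr14:16575544-16575726, minus strand): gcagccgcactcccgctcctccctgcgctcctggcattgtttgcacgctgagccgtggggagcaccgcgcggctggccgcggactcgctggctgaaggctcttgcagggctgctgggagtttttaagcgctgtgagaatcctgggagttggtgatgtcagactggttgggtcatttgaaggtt
Rxrg promoter, upstream start (chr1:167598112-167598361, plus strand): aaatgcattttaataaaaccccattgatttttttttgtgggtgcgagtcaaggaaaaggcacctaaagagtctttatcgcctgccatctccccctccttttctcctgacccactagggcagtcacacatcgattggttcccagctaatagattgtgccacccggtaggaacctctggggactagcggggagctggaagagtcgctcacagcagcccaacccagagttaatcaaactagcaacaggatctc
Foxp1 promoter, innermost start (chr6:99028299-99028548, minus strand): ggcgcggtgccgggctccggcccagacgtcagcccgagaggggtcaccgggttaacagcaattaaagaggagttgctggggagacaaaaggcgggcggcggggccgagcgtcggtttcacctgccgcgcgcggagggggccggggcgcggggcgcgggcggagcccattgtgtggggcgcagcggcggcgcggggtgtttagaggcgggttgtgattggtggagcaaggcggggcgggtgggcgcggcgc

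The coding exons in which the observed isoforms differ are shown next, from the reference transcripts on the minus strand. The Meis2 exon at chr2:115867269-115867379 starts either with or without the 21 bases in capitals. The Foxp1 exon at chr6:99015424-99015513 starts with or without the 3 bases in capitals. The Bcl11b exon at chr12:107965672-107965887 is 216 bases long and is either included or skipped.
Meis2 exon: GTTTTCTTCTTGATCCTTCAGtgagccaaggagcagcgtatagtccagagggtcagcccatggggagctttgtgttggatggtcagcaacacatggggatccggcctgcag
Foxp1 exon: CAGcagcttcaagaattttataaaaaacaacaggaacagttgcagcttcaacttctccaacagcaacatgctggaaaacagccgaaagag
Bcl11b cassette exon: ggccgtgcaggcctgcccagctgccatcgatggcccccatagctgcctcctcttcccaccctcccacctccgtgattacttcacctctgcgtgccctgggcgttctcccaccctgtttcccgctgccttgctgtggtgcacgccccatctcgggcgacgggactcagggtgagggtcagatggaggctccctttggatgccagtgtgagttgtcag

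All 6 genes with enough reads for the test were higher in NT striatum than in NT cortex. The test was edgeR's quasi-likelihood test over all 16 samples with Benjamini-Hochberg adjustment, and 15.8% of the 7390 genes tested were higher in striatum. Levels are given in CPM, as mean ± SD with n = 4. CPM are the reads of a gene scaled to the gene reads of its sample times the sample's TMM scaling factor (edgeR).

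Rxrg had the largest difference of the 6. Its level was 172 ± 34.9 in NT striatum and 13.4 ± 4.90 in NT cortex, and the log2 fold change was 3.28 ± 0.30 (standard error, adjusted p = 5.19e-08). Rarb was at 86.9 ± 27.9 and 11.6 ± 8.15, with a log2 fold change of 2.46 ± 0.38 (adjusted p = 2.64e-05). The lowest NT striatal sample of either receptor gene was above its highest cortical sample. How many of all tested genes separate their samples in this way was not counted, here or below.

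Foxp1 was at 182 ± 18.9 in NT striatum and 32.7 ± 12.8 in NT cortex, a log2 fold change of 2.18 ± 0.24 (edgeR, adjusted p = 5.23e-07). Foxp2 was at 38.8 ± 7.80 and 7.80 ± 2.80, a log2 fold change of 2.04 ± 0.43 (edgeR, adjusted p = 0.000713). Meis2 was at 208 ± 38.6 and 58.0 ± 5.11, a log2 fold change of 1.57 ± 0.26 (edgeR, adjusted p = 6.64e-05). The forkhead and homeodomain genes therefore also separated the regions.

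Bcl11b, which deep-layer cortical neurons also use, was at 70.1 ± 38.1 in NT striatum and 12.3 ± 5.18 in NT cortex, with a log2 fold change of 1.75 ± 0.43 (edgeR, adjusted p = 0.00306). Its NT striatal replicate 4 was at 13.96 from 3 reads, inside the cortical range of 7.52 to 18.4, and the other striatal replicates were between 82.4 and 98.8. Without NT striatal replicate 3 the Bcl11b log2 fold change was 1.02 and the edgeR adjusted p was 0.133. Zfp503 did not pass the filter on low counts. It had 13 reads in NT striatum, with 0 in NT replicate 4, and 0 in 1522308 gene reads of NT cortex. With 3 reads over the cortical group taken as a floor, its share of the gene reads, without the TMM factor, was 2.13-fold higher in striatum. The counting error of the 13 striatal reads was left out, so this is not a lower limit.

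In R6/2 mice 5 of the 6 tested genes were higher in striatum than in cortex, against 12.9% of all genes. The log2 fold changes were 2.95 ± 0.31 for Rxrg, 2.36 ± 0.42 for Foxp2, 2.25 ± 0.42 for Rarb, 1.54 ± 0.22 for Foxp1 and 1.14 ± 0.26 for Meis2, with edgeR adjusted p-values from 7.43e-07 to 0.00202. The Bcl11b value of 0.86 ± 0.44 did not pass (edgeR, adjusted p = 0.148). Its R6/2 striatal samples were at 18.1, 23.9, 46.5 and 51.1 and the R6/2 cortical ones at 3.63 to 15.5. These groups did not overlap, and the edgeR test was not passed. With the genomic class added Bcl11b did pass, at a log2 fold change of 1.30 (edgeR, adjusted p = 7.51e-05). With DESeq2, which changes both the scaling and the test, the median of all genes in this comparison moved from -0.10 to 0.01 and the share of higher calls from 47.5% to 57.5%, and the same 5 genes were called higher. Upper-quartile scaling alone gave a share of 52.4%.

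**Figure D1:**
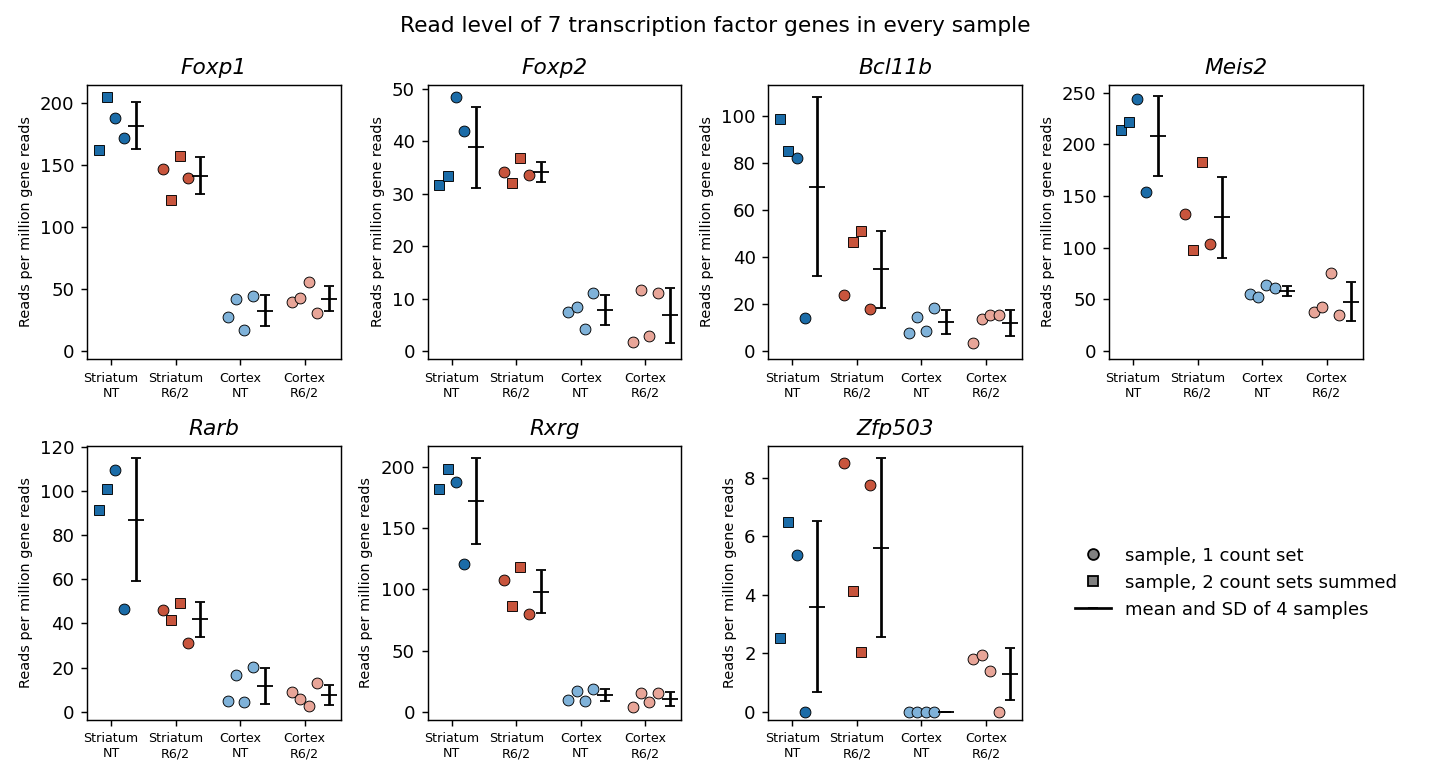
Read level of each gene, in CPM of gene reads (vertical axis, linear and separate for each gene), in the 4 samples of each group, where circles have 1 count set and squares are the sum of 2. The crosses with bars are the mean and SD. Foxp1, Foxp2, Meis2, Rarb and Rxrg sit higher in all striatal than in all cortical samples, a separation not counted over all genes. Bcl11b in striatum NT replicate 4 is at 13.96.

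The comparison of R6/2 with NT striatum asked how these genes stood in the tissue most affected by the transgene. Rarb and Rxrg were lower in R6/2 striatum, Bcl11b and Meis2 had negative fold changes just short of the threshold, and Foxp1, Foxp2 and Zfp503 did not pass. Of the 6 tested genes 2 were called lower, whereas 3.84% of the 7658 genes tested were lower. The unadjusted p was under 0.05 for 5 of the 6, and their median log2 fold change was -0.80 beside -0.00218 for all genes. In bulk tissue fewer cells of a type and less RNA per cell cannot be told apart.

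Rarb was at 91.2, 100.6, 109 and 46.5 in NT replicates 1 to 4 and at 46.0, 41.3, 49.0 and 31.0 in R6/2 replicates 1 to 4. It fell by 1.12 ± 0.21 on the log2 scale (edgeR, adjusted p = 0.00951). The shallow NT replicate 4 lay among the R6/2 samples, and without it the difference was -1.22 (edgeR, adjusted p = 0.00295).

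Rxrg was at 182, 198, 188 and 121 in the NT replicates and at 107, 86.8, 118.5 and 80.1 in the R6/2 replicates. It fell by 0.87 ± 0.16 on the log2 scale, a 1.82-fold lower level (edgeR, adjusted p = 0.00948). Every R6/2 sample was below every NT sample, with the smallest gap between NT replicate 4 and R6/2 replicate 3. Without NT replicate 4 the value was -0.93 (edgeR, adjusted p = 0.00521).

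Both receptor calls depended on the count set term and on single libraries. Without the term the edgeR adjusted p was 0.104 for Rarb and 0.120 for Rxrg, and without R6/2 replicate 2 it was 0.0644 and 0.0785, at log2 fold changes of -1.07 and -0.76. Without NT replicate 3 Rarb was at -0.93 (edgeR, adjusted p = 0.0537). The sizes varied less than the calls. Among samples with 1 count set, 2 against 2, the log2 fold change was -1.20 for Rarb and -0.85 for Rxrg, and among those with 2 count sets it was -1.08 and -0.88.

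Bcl11b was at 98.8, 85.2, 82.4 and 13.96 in the NT replicates and at 23.9, 46.5, 51.1 and 18.1 in the R6/2 replicates. NT replicate 4 was the lowest sample of all, and the 3 other NT samples were above every R6/2 sample. The log2 fold change was -1.09 ± 0.29 (edgeR, adjusted p = 0.0509). It passed without NT replicate 4, at -1.21 (edgeR, adjusted p = 0.0101), and also with DESeq2 (adjusted p = 0.0402), with no filter (0.00255) and in a fit of all 16 samples (0.0235). Leaving aside fits chosen after seeing the data, Bcl11b passed in 5 of 18 other settings. It did not pass without the count set term (edgeR, adjusted p = 0.475), with the first count set only (-0.81, 0.780) or without NT replicate 3 (-0.73, 0.162), among others.

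Most Bcl11b reads were of the genomic class, and these were not part of the gene reads. There were 442 such reads in NT and 229 in R6/2 striatum, beside 232 and 116 gene reads. Scaled like the CPM of gene reads they stood at 110, 146, 211 and 265 in the NT replicates and 92.1, 70.2, 65.4 and 111 in the R6/2 replicates. NT replicate 4 was here the highest sample and not the lowest. It was also the highest striatal sample in genomic reads of Foxp1, Meis2 and Rxrg, but not of Foxp2, Rarb or Zfp503. Of all its reads 12.2% were genomic, the largest share of any sample. The part of this library in the genomic values of Bcl11b was not tested. A fit of the genomic class alone, chosen after seeing the data, gave a log2 fold change of -0.67 for Bcl11b (edgeR, adjusted p = 0.0341), and 4.42% of the 1198 genes tested in it were lower. With the genomic class added to the gene reads Bcl11b was at -1.05 (edgeR, adjusted p = 0.000733).

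Meis2 was at 214, 222, 244 and 154 in the NT replicates and at 133, 98.1, 183 and 103 in the R6/2 replicates. The groups overlapped through R6/2 replicate 3 and NT replicate 4, and the log2 fold change was -0.73 ± 0.20 (edgeR, adjusted p = 0.0542). It passed without either of these samples, at -0.97 without R6/2 replicate 3 (edgeR, adjusted p = 0.0211) and -0.78 without NT replicate 4 (0.0444), and with the genomic class added (-0.63, 0.0334). Meis2 likewise passed in 5 of 18 other settings. It did not pass without the count set term (edgeR, adjusted p = 0.277), with the first count set only (0.536), with ISM left out (0.203) or without R6/2 replicate 2 (-0.57, 0.225), among others.

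Foxp1 was at 162, 205, 188 and 172 in the NT replicates and at 147, 122, 157 and 140 in the R6/2 replicates. All NT samples were above all R6/2 samples, and the log2 fold change of -0.41 ± 0.15 did not pass (edgeR, adjusted p = 0.171). Foxp2 was at 31.7 to 48.4 in NT and 32.0 to 36.8 in R6/2 striatum, with a log2 fold change of -0.16 ± 0.22 (edgeR, adjusted p = 0.833). The NT range thus enclosed the R6/2 range for Foxp2.

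Zfp503 was read 2, 8, 3 and 0 times in the NT and 5, 4, 2 and 3 times in the R6/2 striatal replicates. At 13 and 14 reads in all, no difference was detectable at this depth. In a fit with no filter its log2 fold change was 0.09 ± 0.64 (edgeR, adjusted p = 0.99).

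**Figure D2:**
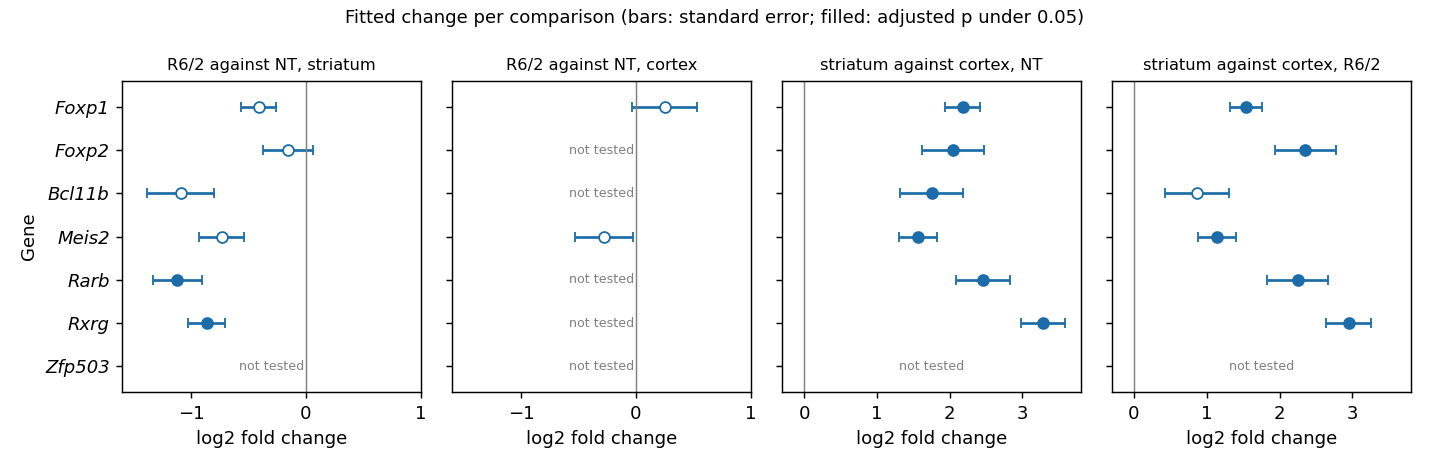
Fitted log2 fold change (horizontal axis) of each gene in the 4 comparisons, with bars of 1 standard error and filled points where the edgeR adjusted p was under 0.05. Rarb at -1.12 and Rxrg at -0.87 are filled in the striatal genotype comparison, and genes that did not pass the filter on low counts are marked as not tested.

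**Figure D3:**
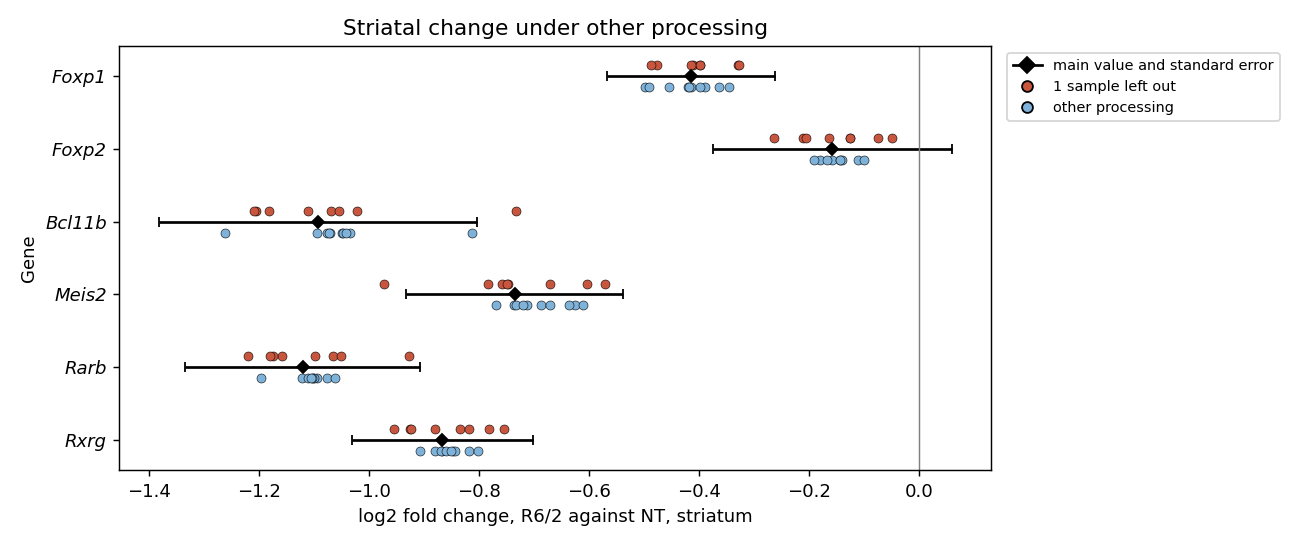
Log2 fold change in R6/2 against NT striatum (horizontal axis) for the 6 tested genes, with the main value and its standard error as a diamond, fits with 1 sample left out in red and other processing in blue. All points lie below 0, from -1.22 to -0.93 for Rarb and from -0.95 to -0.76 for Rxrg over 18 other settings (17 for Foxp2), and the fits chosen after seeing the data, where Foxp2 reached 0.20 and Rarb -0.84, are not drawn.

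In the cortex only Foxp1 and Meis2 had enough reads for the genotype test, and neither was called, while 3.27% of 6121 genes were called in either direction. DESeq2 also called 0 of the 2, and 0 had an unadjusted p under 0.05. Foxp1 was at 27.6, 42.0, 16.99 and 44.2 in the NT and at 39.9, 42.5, 55.8 and 30.9 in the R6/2 cortical replicates, a log2 fold change of 0.25 ± 0.28 (edgeR, adjusted p = 0.702). Meis2 was at 55.2, 52.5, 63.7 and 60.7 in NT and at 38.1, 42.5, 75.4 and 35.3 in R6/2, a log2 fold change of -0.28 ± 0.26 (edgeR, adjusted p = 0.635). R6/2 replicate 3 was the highest cortical sample of either gene.

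The other genes had few cortical reads. Rarb had 22 reads in NT and 16 in R6/2 cortex, Rxrg 24 and 23, Bcl11b 22 and 27, and Foxp2 14 and 14. Zfp503 had 0 and 3. With no filter 0 of the 7 genes were called, the smallest edgeR adjusted p was 0.604, and the log2 fold change was -0.84 ± 0.52 for Rarb and -0.47 ± 0.47 for Rxrg.

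Whether the genotype difference itself differed between striatum and cortex was tested as an interaction. The edgeR test called 0 of the 6 genes, DESeq2 called 0, and 0.0406% of all 7390 genes were called. Foxp1 alone had an unadjusted p under 0.05 by edgeR, with an interaction of -0.64 ± 0.30 on the log2 scale (adjusted p = 0.85). For Rarb and Rxrg, called in striatum, the interaction was -0.21 ± 0.62 and -0.33 ± 0.47, so no difference between the regions was shown for them.

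The long reads also show which transcripts were made. Over the 16 samples 94.5% of the Rxrg gene reads were of the known, NIC or NNC class. These are called complete reads here, which names the classes and does not mean that each read was full-length. The share was 81.9% for Bcl11b, 78.9% for Rarb, 60.3% for Meis2, 58.2% for Foxp1 and 22.6% for Foxp2. For all annotated genes together it was 84.1%. All 30 Zfp503 gene reads were ISM, so no Zfp503 isoform could be named.

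The genomic class held 67.6% of all Bcl11b reads, 43.1% for Foxp2, 40.7% for Foxp1, 35.8% for Meis2 and 21.6% for Rarb, against 7.81% for all annotated genes. Rxrg was at 4.66%. In striatal samples the Bcl11b share was 70.7 ± 18.0% in NT and 70.4 ± 14.5% in R6/2 (exact permutation test, two-sided, p = 1). No shift of Bcl11b reads between classes was thus detectable between the genotypes.

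**Figure D4:**
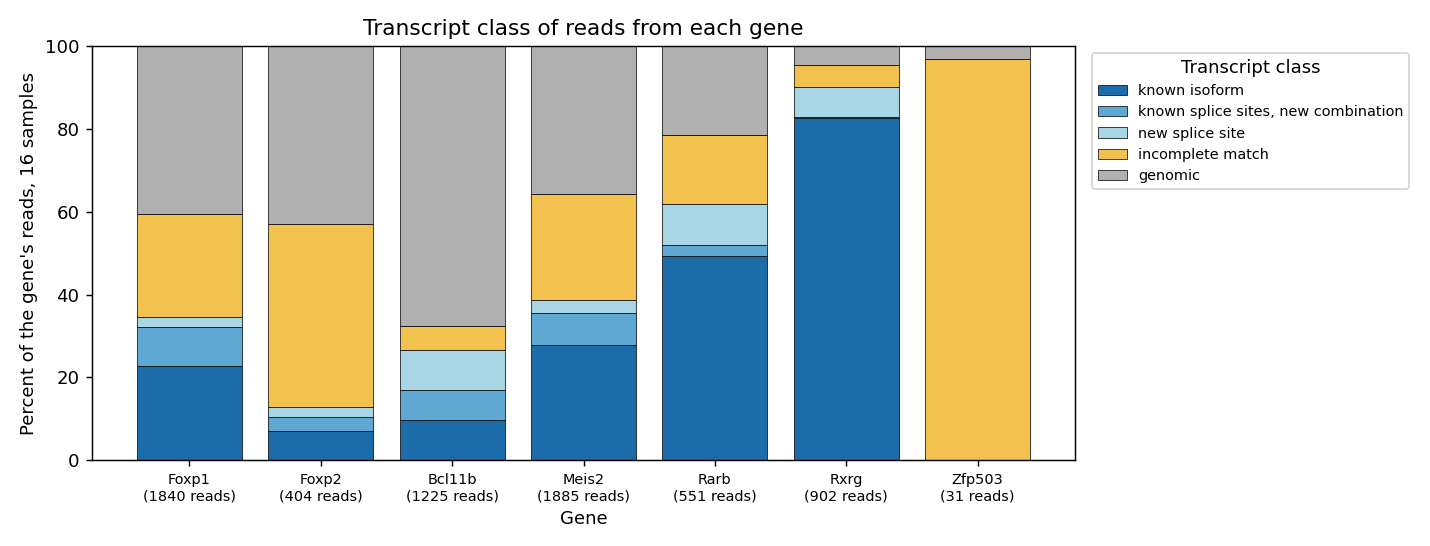
Percent of the reads of each gene (vertical axis, from 0) in the 5 transcript classes, summed over 16 samples. Rxrg is mostly known isoform, Zfp503 mostly incomplete match, and 67.6% of Bcl11b reads are genomic.

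Rxrg reads came mostly from 1 isoform. ENSMUST00000015987, with 10 exons and a coding region of 463 codons, held 90.4% of complete Rxrg reads. Among known Rxrg reads 735 of 745 started at the upstream promoter printed above and 10 at the start of ENSMUST00000111380, which has 9 exons and 340 codons. In striatum the major isoform held 90.0 ± 4.48% of complete reads in NT and 87.7 ± 6.20% in R6/2 (exact permutation test, two-sided, p = 0.571, n = 4 and 4).

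All 272 known Rarb reads were ENSMUST00000063750, with 8 exons and 448 codons. Its first exon holds the half-site repeat in GENCODE, while by the RefSeq start the repeat lies before the transcript. The deposited length of this isoform was 3034 nt, against 3108 nt in GENCODE. Whether the sequenced molecules contain the repeat was not tested. No known read came from the 2 annotated transcripts that start farther upstream. A NNC isoform with 9 exons held 33 of the 341 complete reads. The known isoform held 82.9% of the pooled complete reads in NT striatum, 74.5% in R6/2 striatum, 80% in NT cortex and 70% in R6/2 cortex, from 210, 106, 15 and 10 reads. Fewer than 10 complete reads in some samples left no permutation test of this share, and edgeR's usage test over both isoforms gave an adjusted p of 0.9999 in striatum between genotypes.

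Meis2 was read in both forms of the exon shown above. Of 520 known reads that tell them apart, 264 had the 21 bases and 256 lacked them, a share of 50.8% (95% Wilson interval 46.5 to 55.0%). The share was 49.8% in NT striatum (43.5 to 56.1%), 50.2% in R6/2 striatum (43.4 to 57.1%), 47.1% in NT cortex (31.5 to 63.3%) and 60.9% in R6/2 cortex (46.5 to 73.6%). These Wilson intervals pool the reads of a group and cover counting error only, so their overlap is not a test between groups. Single samples ran from 16.7% (1 of 6 reads) to 80% (4 of 5 reads), and NT striatal replicate 4 was at 20% (2 of 10 reads). A difference between the groups in this exon form was not tested over samples.

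The 2 leading Meis2 isoforms, ENSMUST00000110906 (with the bases, 400 codons) and ENSMUST00000074285 (without them, 393 codons), held 30.3% and 30.0% of complete reads. In striatum ENSMUST00000110906 was at 24.3 ± 7.99% in NT and 32.6 ± 5.26% in R6/2 (exact permutation test, two-sided, p = 0.171, n = 4 and 4). ENSMUST00000074285 was at 31.7 ± 6.59% and 28.5 ± 5.29% (exact permutation test, two-sided, p = 0.514). A first exon farther upstream was used by 76 of the 520 reads.

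Known Foxp1 reads were mostly of forms that begin far inside the gene. Of 352 coding known reads, 346 started at the innermost start, whose promoter is printed above, and 6 farther upstream. The 174 NIC, 42 NNC, 457 ISM and 748 genomic reads of Foxp1 were not assigned to a start. The use of its starts over all reads was therefore not tested. ENSMUST00000177229 (15 exons, 577 codons, with the 3 bases) had 293 reads and ENSMUST00000177437 (15 exons, 576 codons, without them) had 53. In striatum the first held 44.9 ± 9.47% of complete reads in NT and 43.5 ± 15.0% in R6/2 (exact permutation test, two-sided, p = 0.8286, n = 4 and 4).

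A 2-exon Foxp1 transcript of 336 nt with a retained intron, ENSMUST00000175880, had 66 reads. Its share of complete striatal reads was 17.7 to 31.8% in samples with 1 count set and 2.63 to 4.88% in those with 2, whatever the genotype. Its mean was 14.3 ± 13.4% in NT and 12.8 ± 11.2% in R6/2 (exact permutation test, two-sided, p = 0.857, n = 4 and 4). This share thus followed the number of count sets, and with it the mean transcript length, and the part of either was not tested.

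Bcl11b known reads mostly skipped the 216-base exon. ENSMUST00000109891 (3 exons, 2888 nt, 812 codons) had 91 reads. ENSMUST00000066060, which includes the exon (4 exons, 8111 nt, 884 codons), had 27. The 2 isoforms thus differ much in length, and the part of length in the share of skipping was not tested. The share of skipping was 75.6% in NT striatum (62 of 82 reads, 95% Wilson interval 65.3 to 83.6%) and 79.3% in R6/2 striatum (23 of 29 reads, 61.6 to 90.2%). A NNC isoform of 2 exons had 52 reads and a NIC isoform of 3 exons 35, so known isoforms made up only 119 of 325 complete Bcl11b reads. Foxp2 had 14 reads of its 19-exon isoform ENSMUST00000115477 and 52 complete reads in all.

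**Figure D5:**
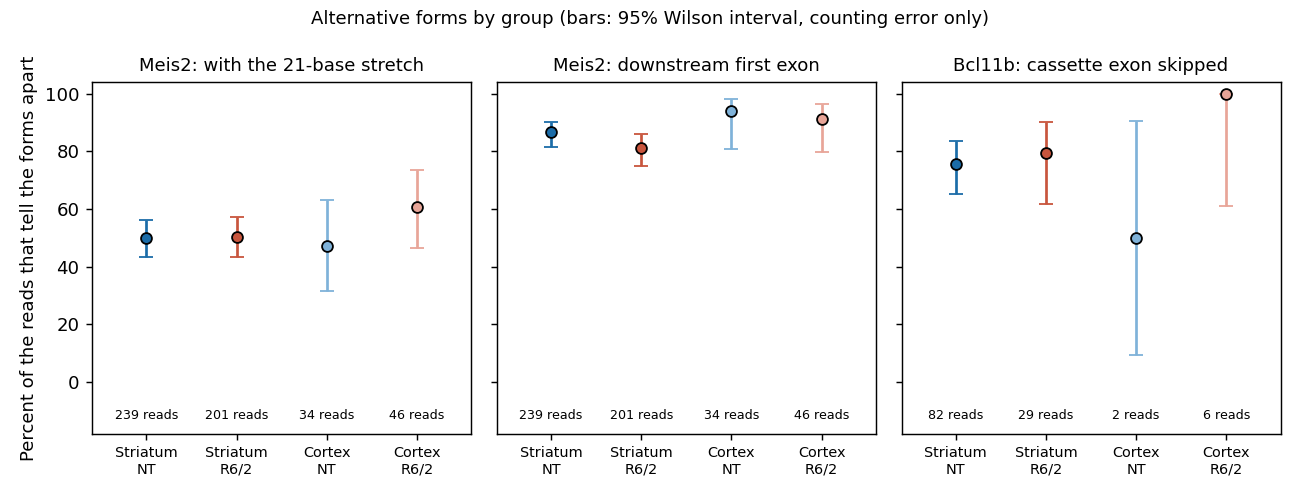
Share of known reads (vertical axis, percent) with the 21-base stretch and with the downstream first exon of Meis2, and without the cassette exon of Bcl11b, pooled over the 4 samples of each group, with 95% Wilson intervals and the number of reads below. The Meis2 stretch lies between 47.1% and 60.9% in all 4 groups.

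Isoform usage was tested over all genes with edgeR's differential splicing test. In striatum 5 of the 7 genes could be tested between genotypes and 0 were called (smallest p 0.0535, for Foxp1, adjusted p = 0.774), against 0.428% of 4437 genes. In cortex 2 could be tested and 0 were called, against 0.36% of 3058 genes. Between NT striatum and NT cortex 5 could be tested and 0 were called, against 0.135% of 3694 genes. None had an unadjusted p under 0.05 in these fits; DESeq2 was not used for usage. With a gene-level F test (adjusted p = 0.232) or without R6/2 replicate 4 (adjusted p = 0.744) the unadjusted p of Foxp1 in striatum was under 0.05. The 28 exact permutation tests of isoform and class shares gave 0 adjusted p-values under 0.05 and a smallest p of 0.0857, where 4 against 4 samples allow 0.0286.

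The relatives and partners of the 7 genes were also examined. Of 17 listed paralogues and partners, 7 were tested in striatum and 0 were called, with a median log2 fold change of -0.41 beside -0.00211 for all genes tested. Rxrb, a retinoid X receptor like Rxrg, was at -0.54 ± 0.27 (edgeR, adjusted p = 0.32), Meis3 at -0.40 ± 0.22 (0.386) and Bcl11a at 0.18 ± 0.28 (0.817). In cortex 0 of 6 were called. Of 28 other transcription factors of the striatal lineage, 10 were tested in striatum and 3 in cortex, and 0 were called in either.

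Between the regions of NT mice, 4 of the 7 tested lineage factors were higher in striatum and 1 was lower. Of all 7390 genes tested 1165 were higher and 1302 lower. Isl1, a homeodomain protein of striatal neurons, was at 2.68 ± 0.45 on the log2 scale, Dlx5 at 2.90 ± 0.65, Foxo1 at 2.61 ± 0.64 and Lhx8, known from striatal cholinergic neurons, at 2.33 ± 0.60 (edgeR, adjusted p-values from 8.41e-05 to 0.00419). Mef2c, a factor of cortical excitatory neurons, was at -2.14 ± 0.22 (edgeR, adjusted p = 2.35e-07). These 5 were named after their values were seen.

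Among 17 genes of the retinoid pathway, 7 were tested in striatum and 4 in cortex, and Rbp4, which carries retinol, was the 1 called lower in each. It fell by 1.24 ± 0.27 on the log2 scale in striatum (edgeR, adjusted p = 0.0201) and by 1.16 ± 0.31 in cortex (adjusted p = 0.0407). Rbp4 was at 55.0 ± 26.4 in NT and 25.7 ± 8.23 in R6/2 striatum, and at 59.5 ± 27.7 and 27.7 ± 6.54 in cortex. Its highest striatal sample was NT replicate 3, where the summed level of 4 choroid plexus markers was 10459.5 CPM beside 53.2 to 302 in the 3 other NT samples. Without that sample Rbp4 was at -0.98 (edgeR, adjusted p = 0.114), and it also lost its call without R6/2 replicate 1, 3 or 4. In cortex it lost its call without NT replicate 1 or 4 or any 1 of the R6/2 samples. In cortex the sum of the choroid plexus markers was 6.30 to 885 CPM in NT (median 26.4) and 19.9 to 1560.5 in R6/2 samples (median 579). The cortical median was thus higher in R6/2, where Rbp4 was lower. The part of choroid plexus tissue in the Rbp4 values of either region was not tested.

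Markers of striatal projection neurons were mostly lower as well. Of 13 such markers 10 were lower in R6/2 striatum and 0 higher, while 3.84% of the 7658 genes tested were lower. Their median log2 fold change was -1.84, and their summed level was 10718 to 16748 CPM in NT and 2541 to 4681 in R6/2 samples. All 13 had reads in every group. Penk, the enkephalin precursor, fell by 3.04 ± 0.20 on the log2 scale (edgeR, adjusted p = 7.97e-06). The part of these neurons in the Rarb and Rxrg values was not tested.

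Markers of other cells showed fewer differences in striatum. 0 of 5 interneuron markers, 0 of 5 astrocyte markers, 0 of 5 microglial markers and 0 of 1 tested choroid plexus marker were called. The summed level of the interneuron markers was nevertheless 1138 to 1182 CPM in NT and 705 to 779 in R6/2 striatum, with no overlap. This sum includes Gad1 and Gad2, which mark inhibitory neurons in general and so also the projection neurons. Gad1 alone was at 590 ± 219 in NT and 395 ± 117 in R6/2 striatum. The part of interneurons in the sum was not tested. Astrocyte markers summed to 344 to 961 and 445 to 716, and microglial markers to 260 to 333 and 242 to 357. Of 6 oligodendrocyte markers Mobp was called lower, and the 1 cortical excitatory marker tested, Nrgn, was called lower. Nrgn was at 189 ± 107 in NT striatum and 182 ± 85.0 in NT cortex, so its mean level was not higher in cortex. Which cells its striatal reads came from was not tested. In cortex 2 of 5 tested projection neuron markers (Ppp1r1b and Penk) and 3 of 6 interneuron markers (Vip, Npy and Gad1) were lower, and 0 of the other marker lists. Of all 6121 genes tested in cortex 172 were lower. The cortical summed level of projection neuron markers was 404 to 546 CPM in NT and 145 to 190 in R6/2.

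The genes whose level most resembled the members' were found by Pearson correlation of log2 CPM among 7026 genes, as a description. Over all 16 samples, which fall into 2 regions, the nearest gene was Gng7 for Rxrg (r = 0.98), Actn2 for Rarb (r = 0.98), 1700037H04Rik for Meis2 (r = 0.97), Ankrd63 for Foxp1 (r = 0.97), Ap1s2 for Foxp2 (r = 0.95) and Selenop for Bcl11b (r = 0.94). Gng7 codes for a G protein subunit abundant in striatum, and Rgs9, also a striatal gene, was among the 3 nearest for Rarb.

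Over the 8 striatal samples alone the nearest genes were Nsg1 for Rxrg (r = 0.98), Galnt18 for Rarb (r = 0.98), Plxdc1 for Bcl11b (r = 0.99), Thsd7a for Meis2 (r = 0.96), Sbds for Foxp2 (r = 0.97) and Camk2n1 for Foxp1 (r = 0.96). Nsg1 and Gnb5 were among the 3 nearest for both receptor genes, and Rarb and Rxrg correlated with each other at r = 0.98. Foxp2 and Bcl11b were the least alike of the members over these samples (r = -0.06). The points share the libraries, their depth and the number of count sets.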

How the data were processed

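Iso-seq was performed on 16 samples, 4 per region and genotype. RNA was treated with a 5′-phosphate-dependent exonuclease before polyA RNA was used for libraries. Per the labels and the study's methods, the authors used minimap2 2.17-r941 to align the reads to mm10, TranscriptClean to correct errors and TALON with Ensembl annotation to name isoforms. The authors deposited unfiltered read counts per isoform, without normalization, and all values here start from those counts. Without molecular identifiers, reads amplified by PCR are not independent molecules.

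The 2 count sets of a sample were summed, and reads of known genes in the known, ISM, NIC and NNC classes were added up per gene. Genomic, antisense and intergenic reads were left out of gene reads. Genes were tested with edgeR 4.0.16 in R 4.3.3 (TMM scaling, filterByExpr, quasi-likelihood F test, Benjamini-Hochberg adjustment over all genes, threshold 0.05), with the number of count sets as a term. Striatum and cortex were fitted separately for genotype, and all 16 samples together for region and interaction. The standard error was taken from the F statistic. For isoform usage, diffSpliceDGE of edgeR was run on isoforms with at least 10 reads. Shares were compared by exact permutation where every sample had at least 10 reads. The steps were tested on simulated data. Annotation came from GENCODE M21, in which all 27 known isoforms with reads were found, 26 with the deposited length (Rarb ENSMUST00000063750 differed, at 3034 and 3108 nt).

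All 7 genes are named, as are isoforms with at least 10% of complete reads in a group and 10 reads in all, up to 4 called genes per related list and genotype comparison, and genes among the 3 nearest each member, of which some are not reported here. The members and lists were chosen with earlier results of these data known. Alternatives were other scaling, filters and read classes, DESeq2 1.42.0, the first count set only, no count set term, a replicate block, 1 fit of all samples and leaving out each sample. Grouping reads by exon form, the genomic class alone and the fits within a number of count sets were chosen after seeing the data. What the count sets are beyond the labels' remark on replicates in the raw data is not given in the sources used here.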

Additional observations from a re-analysis of the deposited data

Results flagged for a closer look

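In groups of 4 samples, a sample was singled out when its gap to the nearest other exceeded Dixon's critical value as a share of the range. This was checked in 67 groups and singled out 3 samples. Chance alone singles out about 1 in 20 groups. Bcl11b in R6/2 cortex replicate 1 was at 3.63 CPM, while the 3 other samples were between 13.5 and 15.5. The ISM class held 22.6% of Rxrg gene reads in R6/2 striatum replicate 4 and 0.862 to 3.57% in the others. The genomic class held 25.7% of Rxrg reads in NT striatum replicate 4 and 2.04 to 3.94% in the others. The last 2 samples are the shallowest striatal libraries of their groups, with 31 and 26 Rxrg gene reads.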

How the results depend on the processing

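Over all alternatives, 578 of the 611 values for single genes kept their direction and their side of the threshold, 12 gained a call, 13 lost one and 8 changed sign. In R6/2 against NT striatum 332 genes were called, and 2 of the 7 members. With no filter these counts were 606 and 4, without the count set term 39 and 0, with the first count set only 20 and 0, in the genomic class alone 97 and 1, in samples of 1 count set 55 and 0, in those of 2 count sets 34 and 0, and leaving out 1 sample 143 to 391 and 0 to 4. Members called were 4 with the genomic class added and 4 in a fit of all 16 samples. In cortex 200 genes were called, 95 with ISM left out, 19 in the genomic class alone and 95 to 305 leaving out 1 sample. Between regions 2467 genes were called in NT and 2014 in R6/2, 1101 and 840 without the count set term, 932 and 713 with the first count set only, and 1930 to 2510 and 1498 to 2248 leaving out 1 sample (members 5 to 6 and 5 to 5). For the interaction 3 were called, 8 with no filter, 7 with DESeq2, 1 with ISM left out, 1 without the count set term, 0 with the first count set only and 1 to 3 leaving out 1 sample. Isoform usage was called for 19 genes in striatum, 11 in cortex and 5 between regions. A gene-level F test gave 72, 28 and 17, and leaving out 1 sample 5 to 24, 3 to 16 and 1 to 9. In striatum known isoforms alone gave 9, ISM added 11 and no count set term 3, and between regions ISM added gave 87, a minimum of 20 reads 9 and no count set term 10. Of the members, Foxp2 changed sign in striatum in the genomic class alone (0.20) and in samples of 2 count sets (0.091), Foxp1 in cortex with ISM left out (-0.15), Meis2 in cortex in the genomic class alone (0.61) and the Foxp2 interaction with the genomic class added (-0.16). Leaving out 1 sample, the interaction ran from -0.024 to 0.74 for Foxp2 and from -0.62 to 0.14 for Rarb. With ISM in the denominator, the striatal share difference was 1.04 percentage points for Meis2 ENSMUST00000074285 and 0.558 for Rxrg ENSMUST00000015987. Leaving out 1 sample it ran from -7.46 to 4.82 for Foxp1 ENSMUST00000177229, -5.53 to 4.37 for Foxp1 ENSMUST00000175880, -6.27 to 7.82 for the Bcl11b genomic class and -4.03 to 0.472 for Rxrg ENSMUST00000015987. Where no reason follows from fewer samples or genes, the cause was not tested. Zfp503, with 30 gene reads, and the cortical reads of most members limit what depth could show.

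The correlation of the deviations of same-numbered samples was over 0.1 in 2 of 4 pairs between NT and R6/2 striatum (-0.578 to 0.629), in 2 of 4 between NT and R6/2 cortex (-0.0753 to 0.182), in 2 of 4 between the regions of NT mice (-0.233 to 0.238) and in 3 of 4 between the regions of R6/2 mice (-0.0446 to 0.421). The sample correlated best with its own number in 1, 2, 2 and 3 of 4 pairs. Since no comparison had every pair over 0.1, the numbers were not read as a pairing. With a replicate block, 185 genes were called in striatum, Rarb and Rxrg among them (edgeR, adjusted p = 0.0302 and 0.0361), 1 in the interaction, and isoform usage in 7 genes in cortex and 1 between regions.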
